A study of Rattus norvegicus with 10 samples.

Results

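Transcripts of the mitochondrial respiratory chain were compared between livers of rats fed HMB and livers of control rats. HMB, 2-hydroxy-4-methoxybenzophenone, is an ultraviolet filter used in sunscreens. Members were taken by gene symbol, as every gene whose single symbol in the array annotation begins Ndufa, Ndufb, Ndufc, Ndufs, Ndufv, Uqcr, Cox4, Cox5, Cox6, Cox7 or Cox8, or is Sdha, Sdhb, Sdhc, Sdhd, Cyc1 or Cycs. This gave 71 of the 14217 genes measured, each read from its brightest probe set by mean signal across the 10 arrays. By symbol, 36 members were placed in complex I, 4 in complex II, 8 in complex III and 17 in complex IV. The remaining 6, whose symbols begin Ndufaf, encode assembly factors of complex I, which help to build the enzyme and are not part of it. Cox6c-ps1, counted with complex IV by its symbol, is named as a pseudogene of Cox6c, and how far its probe set also takes up Cox6c transcripts was not tested. Cycs, the electron carrier cytochrome c, was not a member, because both of its probe sets carry several symbols.

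The 10 animals were Harlan Sprague Dawley rats with 1 array each. The HMB group held 5 animals fed over 13 weeks, with a dose label of 10000 ppm in all but animal 1. The 5 control rats are labelled 0 ppm. Animal 1 of the HMB group has an HMB title and chemical label but a dose label of 0 ppm, and was kept in the HMB group. Sex, age and cage are not given in the labels used here, and with 5 rats per cage a cage and a group cannot be told apart if each group shared 1. Values are log2 signals, so a difference of 1 is a doubling, and their number, 5 arrays per group, limits the precision. Tests treat the animals as independent.

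The respiratory chain sits in the inner mitochondrial membrane. Complex I (NADH dehydrogenase) and complex II (succinate dehydrogenase) pass electrons to ubiquinone, complex III passes them on to cytochrome c, and complex IV (cytochrome c oxidase) hands them to oxygen. Complexes I, III and IV pump protons, and ATP synthase uses the resulting gradient. Most subunits are encoded in the nucleus, while the catalytic centre of complex IV and part of complexes I and III are encoded in mitochondrial DNA. Hepatocytes are rich in mitochondria and use the chain to oxidise the products of fatty acid and amino acid breakdown.

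None of the 71 members passed the test between HMB and control (limma, Benjamini-Hochberg adjusted p under 0.05 over all 14217 genes), where 244 of all genes, or 1.72%, did. The smallest adjusted p of a member was 0.121, for Cox6c-ps1. Before adjustment 4 of the 71 members, or 5.63%, had a p under 0.05, against 3538 genes, or 24.9%, of all genes. Those 4 were Ndufaf4, Ndufa2 and Cox7a2l, lower in HMB, and Cox6c-ps1, higher in HMB. Of the 77 probe sets of member genes 0 passed, against 1.7% called of the 31042 probe sets tested.

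The estimated differences of the members were small and their intervals narrow. The median absolute log2 difference was 0.062 over the members and 0.137 over all genes. For 57 of the 71 members, or 80.3%, the 95% interval of the difference lay wholly within 1.2-fold in either direction, which was so for 21.9% of all genes. Members were mostly bright on these arrays, 58 of them falling in the brightest level class of genes, which holds 3554 of them. In that class the share was 89.7% for members and 39.4% for all genes. The intervals are not adjusted for the number of genes, and a p that misses the threshold does not show that levels were equal.

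**Figure D1:**
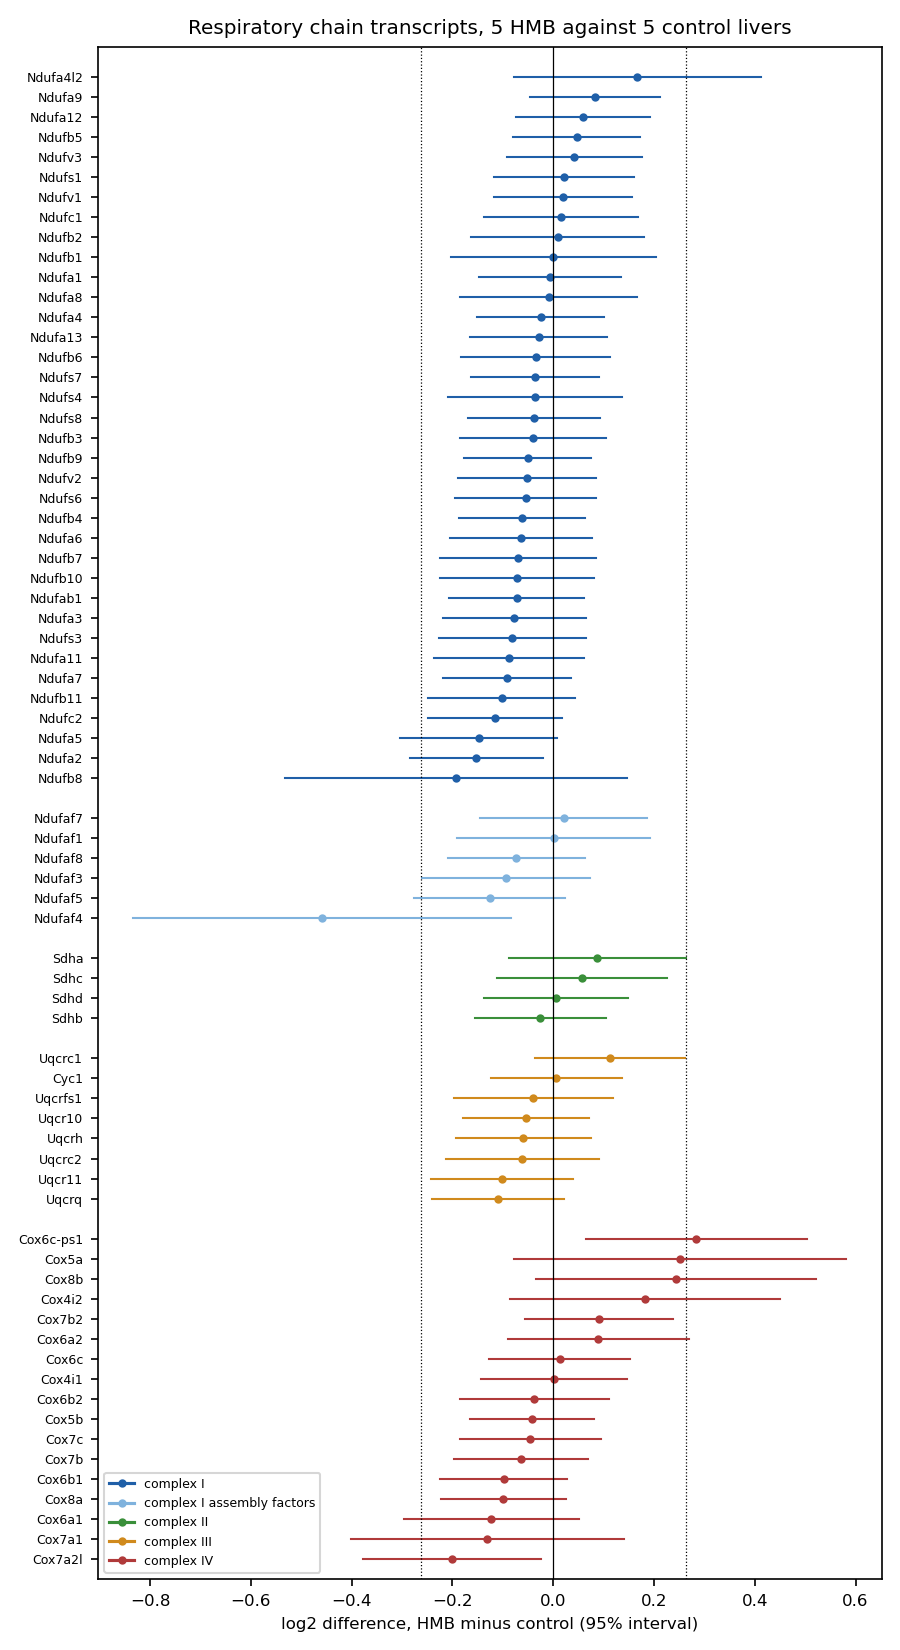
Log2 difference, HMB minus control, for each of the 71 members, grouped by complex. Points are limma estimates, bars are 95% intervals (n = 5 per group), and dotted lines mark 1.2-fold in either direction. Ndufaf4 lies farthest from 0 at -0.46, and most intervals stay between the dotted lines.

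Of the members, 46 had a log2 difference below 0 and 25 above 0, with a median of -0.04 against -0.02 over all genes. Of all genes 53.5% lay below 0. In the brightest class it was 41 of the 58 members and 2531 of the 3554 genes. After cyclic loess normalization the split was 38 to 33 and the median -0.003, with 48.5% of all genes below 0. The median was -0.04 in complex I, 0.03 in complex II, -0.06 in complex III, -0.04 in complex IV and -0.08 among the complex I assembly factors. These medians describe the lists and carry no test. On these arrays bright genes as a whole lay slightly lower in HMB, with a median of -0.07 over all genes of the brightest class against -0.04 for the 58 members there. The SD over an array's log2 values was also narrower in HMB (2.38 to 2.43) than in controls (2.43 to 2.50). The part of these array differences in the members' values was not tested. In liver RNA, fewer cells of a type and less RNA per cell cannot be told apart.

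**Figure D2:**
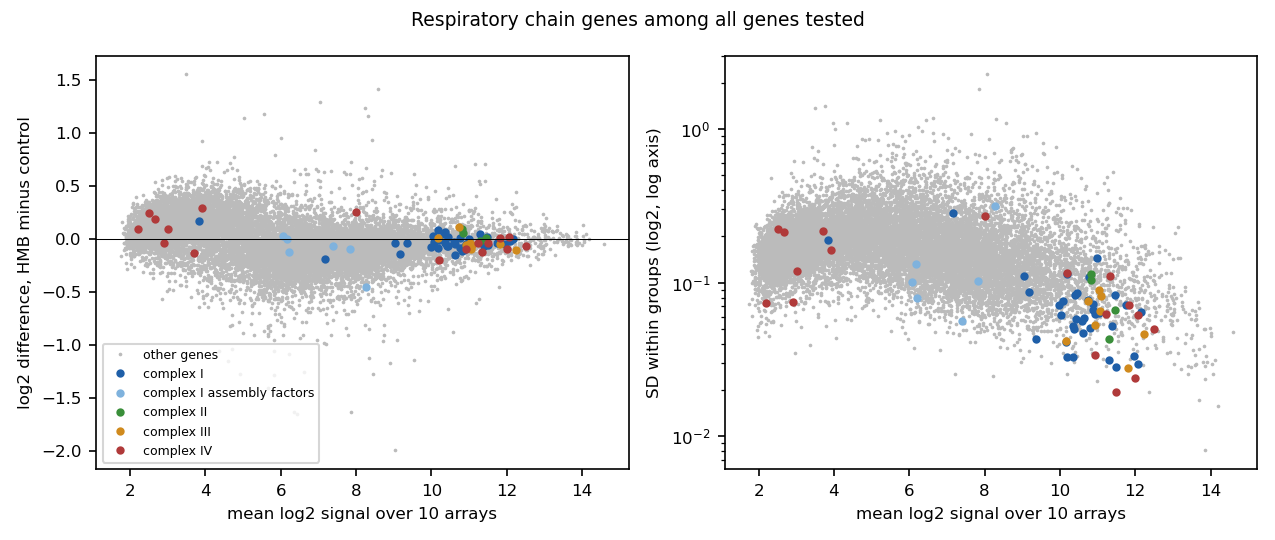
Log2 difference, HMB minus control (left), and SD within groups on a log axis (right), against mean log2 signal over the 10 arrays. Grey points are the other genes tested and coloured points the 71 members by complex. The members gather at the bright end, where differences and spreads are small.

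Members varied little between animals of a group. The median SD within groups was 0.071 over the members, against 0.165 over all genes. In the brightest class it was 0.063 for members and 0.122 for all genes. The mean deviation of the 36 complex I members from their 10-array means was 0.03, -0.004, 0.04, 0.03 and -0.003 in control animals 1 to 5, and -0.03, -0.009, -0.04, 0.003 and -0.02 in HMB animals 1 to 5. The groups overlapped, with HMB animal 4 above control animals 2 and 5. For complex II, HMB animal 3 at -0.13 lay below the control range of -0.07 to 0.02, while HMB animals 1, 2 and 4 at 0.12, 0.05 and 0.03 lay above it. For complex III the HMB animals ran from -0.06 to 0.0091 and the controls from 0.0089 to 0.04, so that HMB animal 2 alone passed a control, animal 1. For complex IV, HMB animals 3 and 5 at 0.07 each lay above all controls (-0.04 to 0.03), while HMB animals 1 and 2 lay at -0.03 and -0.04. That mean takes in Cox6c-ps1 and dim tissue-restricted isoforms, described below. The 7 such isoforms, with Ndufa4l2, placed in complex I by its symbol, among them, averaged 0.18 and 0.08 in HMB animals 3 and 5 (controls -0.08 to 0.04). Of the 10 complex IV members without these and Cox6c-ps1, 7 lay below 0, with a median of -0.05. Means per animal of those 10 were not computed.

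**Figure D3:**
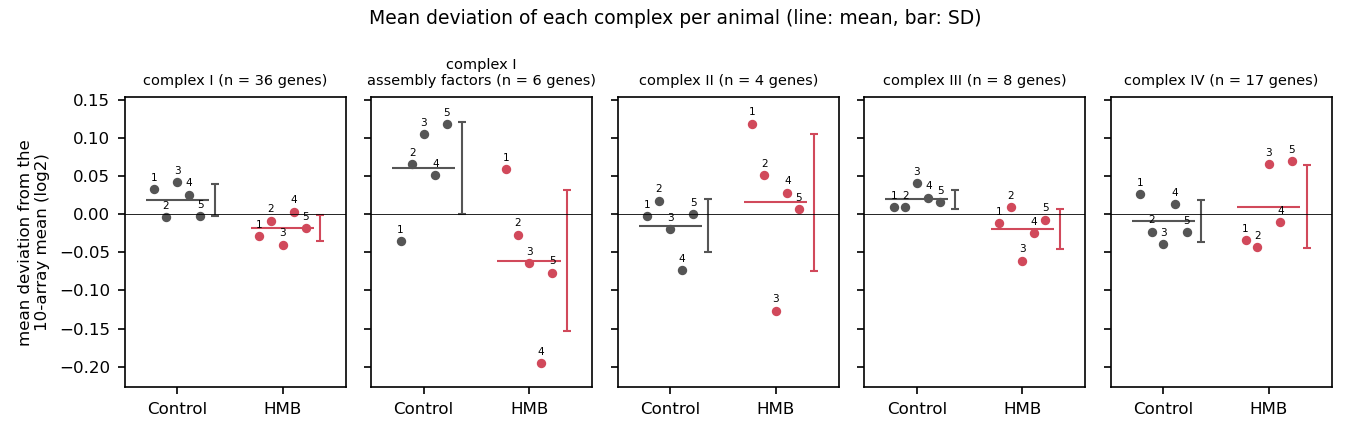
Mean deviation of the members of each complex from their 10-array means, in log2 units, for each animal (numbered points). Lines are group means and bars are SDs (n = 5). HMB and control animals overlap in complex I, the assembly factors, complex II and complex IV, and in complex III by HMB animal 2 alone.

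In complex I, the flavin and the iron-sulfur clusters sit among the core subunits encoded in the nucleus. Of 6 nuclear-encoded core subunits measured, the differences ran from -0.08 to 0.02, and all 6 intervals lay between -0.23 and 0.16. Ndufs1, the largest iron-sulfur subunit, read 10.08, 10.02, 10.06, 9.98 and 9.96 in control animals 1 to 5 and 10.11, 10.10, 9.93, 10.04 and 10.03 in HMB animals 1 to 5. The groups overlapped throughout, with HMB animal 3 the lowest of the 10, and the difference was 0.02 ± 0.064 (SE, 5 rats a group, limma adjusted p = 0.853). Ndufv1, which binds NADH and the flavin, differed by 0.02 (95% interval -0.12 to 0.16) and its partner Ndufv2 by -0.05 (-0.19 to 0.09).

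The accessory subunits of complex I surround the core and are needed for its assembly and stability. Of 29 accessory members, 22 lay below 0 and 7 above 0, with a median of -0.05. For complex I as a whole the count below 0 was 26 of 36, and 20 of 36 after cyclic loess normalization. All genes gave 53.5% and 48.5% below 0. Of the 36, all but Ndufb8 and Ndufa4l2 fell in the brightest level class, where 2531 of 3554 genes lay below 0 before rescaling. Ndufa2, an accessory subunit of the NADH-oxidising arm, read 10.73, 10.65, 10.72, 10.68 and 10.68 in controls 1 to 5 and 10.47, 10.61, 10.55, 10.57 and 10.50 in HMB 1 to 5. All HMB animals lay below all controls, and the difference was -0.15 ± 0.061 (SE, 5 rats a group, limma adjusted p = 0.151). The other estimates below -0.12 were -0.19 for Ndufb8, a membrane-arm subunit described with the array measures, and -0.15 for Ndufa5. On the other side, Ndufa9 differed by 0.08 (95% interval -0.05 to 0.21) and Ndufa12 by 0.06. Ndufa4, named as a complex I subunit but placed in complex IV by later structural work, differed by -0.03 (-0.15 to 0.10). It was counted with complex I here.

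Ndufaf4, a complex I assembly factor, had the largest estimated difference of the 71 members in size. Its log2 signal was 7.98, 8.63, 8.78, 8.31 and 8.77 in controls 1 to 5 and 8.19, 8.07, 8.32, 7.57 and 8.04 in HMB 1 to 5. Control 1 lay below 4 of the 5 HMB animals, so that the groups overlapped. The difference was -0.46 ± 0.17 (SE, 5 rats a group, limma adjusted p = 0.135, 95% interval -0.83 to -0.08). Without control 1 the difference was -0.59 and the gene passed (limma adjusted p = 0.0441), in a fit that called 1014 genes, or 7.13% of all genes and 1 of the 71 members. The other 5 assembly factors ran from -0.13 for Ndufaf5 to 0.02 for Ndufaf7.

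Complex II, which also acts in the citric acid cycle, has 4 subunits, all nuclear and all measured. Sdha, the flavoprotein that oxidises succinate, read 10.79, 10.89, 10.76, 10.63 and 10.78 in controls 1 to 5 and 10.99, 10.94, 10.65, 10.84 and 10.87 in HMB 1 to 5. HMB animals 1 and 2 lay above all controls, the rest among them, and the difference was 0.09 ± 0.081 (SE, 5 rats a group, limma adjusted p = 0.511). The iron-sulfur subunit Sdhb differed by -0.03, and the membrane anchors Sdhc and Sdhd by 0.06 and 0.005. All 4 intervals lay between -0.16 and 0.26. With the poly-A control signal as a covariate the median of the 4 was 0.13.

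In complex III, 6 of 8 members lay below 0. The count was also 6 after cyclic loess or quantile normalization and 7 with arrays scaled to equal medians. Of all genes 53.5% lay below 0, and 48.5%, 46.1% and 60.7% under those scalings in that order. All 8 members fell in the brightest level class, where 2531 of 3554 genes lay below 0 before rescaling. Uqcrq, a small subunit of the membrane part, read 12.27, 12.27, 12.32, 12.34 and 12.27 in controls 1 to 5 and 12.14, 12.13, 12.16, 12.25 and 12.23 in HMB 1 to 5. All HMB animals lay below all controls, by a mean of -0.11 ± 0.06 (SE, 5 rats a group, limma adjusted p = 0.275). Uqcrc1, a core protein on the matrix side, had the estimate farthest above 0 in this complex, 0.11 ± 0.068 (limma adjusted p = 0.316). It read between 10.65 and 10.72 in controls and 10.65, 10.81, 10.74, 10.83 and 10.93 in HMB 1 to 5, so that 4 HMB animals lay above all controls and HMB 1 among them. The redox subunits differed by -0.04 for Uqcrfs1, the Rieske iron-sulfur protein, and by 0.006 for Cyc1, cytochrome c1. Uqcrc2 differed by -0.06, Uqcr11 by -0.10, Uqcrh by -0.06 and Uqcr10 by -0.05, and all 8 intervals lay within 1.2-fold in either direction.

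In complex IV, Cox4i1, the ubiquitous form of the largest nuclear subunit, read 11.85, 11.86, 11.88, 11.81 and 11.74 in controls 1 to 5 and 11.80, 11.74, 11.97, 11.81 and 11.82 in HMB 1 to 5. The group means were both 11.83, and the difference was 0.002 ± 0.067 (SE, 5 rats a group, limma adjusted p = 0.987). Cox8a, the small subunit found in most tissues, read 12.04, 12.04, 12.07, 12.05 and 12.03 in controls 1 to 5 and 11.99, 11.91, 11.94, 11.94 and 11.95 in HMB 1 to 5. All HMB animals lay below all controls, although the difference was only -0.10 ± 0.057 (limma adjusted p = 0.295). Its groups did not overlap under any of the other scalings tried either (cyclic loess, quantile and equal medians). Cox5b differed by -0.04, Cox6c by 0.01 and Cox6a1 by -0.12.

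Cox7a2l, a relative of Cox7a that helps to join complexes III and IV into supercomplexes, read 10.30, 10.34, 10.12, 10.45 and 10.24 in controls 1 to 5. It read 9.96, 9.99, 10.15, 10.18 and 10.17 in HMB 1 to 5. Control 3 lay among the HMB animals and the other 4 controls above them, with a difference of -0.20 ± 0.081 (SE, 5 rats a group, limma adjusted p = 0.156). Cox6c-ps1, dim at 3.77 ± 0.149 (SD, n = 5) in controls and 4.06 ± 0.177 in HMB, differed by 0.28 ± 0.1 (SE, limma adjusted p = 0.121).

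In all, 6 of the 71 members had all HMB animals below all controls and 0 had all above, where 3.48% and 2.64% of all genes did. These 6 fell in the brightest level class, where 191 of 3554 genes, or 5.37%, lay wholly below and 38 wholly above. Besides Ndufa2, Uqcrq and Cox8a these were Ndufa7, Ndufb4 and Cox6b1, named here after their values were seen, with differences of -0.09, -0.06 and -0.10. After cyclic loess or quantile normalization the count was 1 lower, Cox8a, and 1 higher, Ndufa9, where all genes gave 1.66% lower and 2.62% higher after cyclic loess and 1.43% and 2.93% after quantile normalization. With arrays scaled to equal medians it was 11 lower and 0 higher, against 4.89% and 1.77% of all genes.

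**Figure D4:**
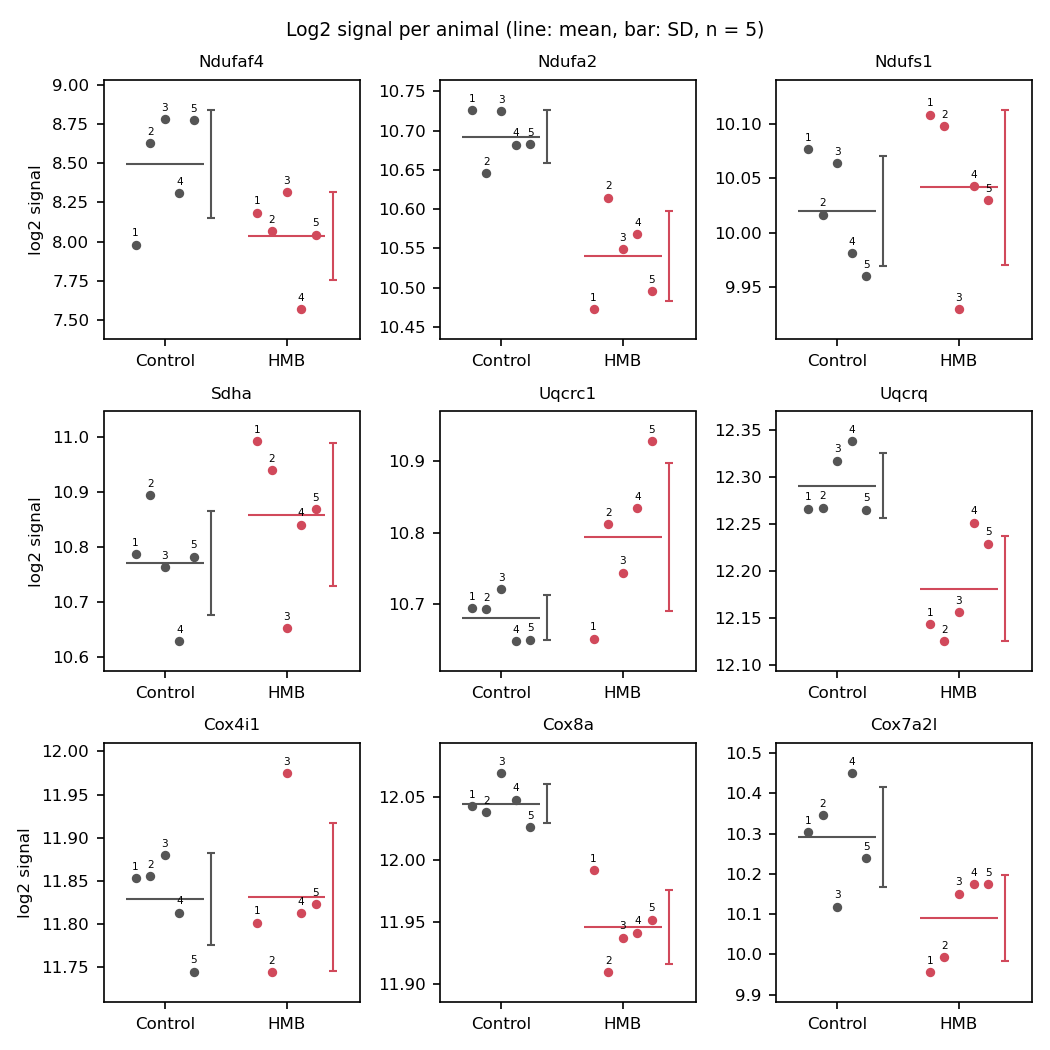
Log2 signal of 9 members in each animal (numbered points), with the group mean (line) and SD (bar, n = 5). Each panel has its own axis, most spanning less than 0.5 log2 units. HMB and control animals do not overlap for Ndufa2, Uqcrq and Cox8a and overlap for the other 6.

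The 7 tissue-restricted isoforms, forms known mainly from muscle, lung, testis or low oxygen, were all dim, with mean log2 signals from 2.20 to 3.83. Their differences ran from -0.13 to 0.24, with 5 above 0 and a median of 0.09, and 5 fell in the dimmest of 4 level classes, whose genes had a median of 0.11. Cox8b, the heart and muscle form of Cox8, differed by 0.24 ± 0.13 (SE, 5 rats a group, limma adjusted p = 0.253) and Cox4i2, the lung form of Cox4, by 0.18 ± 0.12 (adjusted p = 0.367). Cox7a1 differed by -0.13, Cox6a2 by 0.09, Cox7b2 by 0.09, Cox6b2 by -0.04 and Ndufa4l2 by 0.17. Detection calls were not used here, so that a signal at this level cannot be told from background. Of 10 striated muscle markers 0 were called, 9 lay above 0, and their mean level ran from 3.69 to 3.90 in controls and from 3.88 to 3.95 in HMB. Among them Myh1 alone was bright, at 11.23, while Ckm and Mb, creatine kinase and myoglobin of muscle, each had a mean of 3.03. In the dimmest level class 2802 of 3555 genes lay above 0. The part of these levels in the isoforms' values was not tested.

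In 12 of the 77 member probe sets, or 15.6%, HMB animals 3 to 5 lay on 1 side of all controls while HMB animals 1 and 2 did not lie on that side, which was so for 6.86% of all probe sets. In 9 the 3 animals lay below the controls (Cox6a1, Ndufab1, Ndufb8, Ndufb11, Ndufv2, both probe sets of Uqcrc2 and the dimmer ones of Ndufa7 and Sdhd), and in 3 above them (Cox5a, Cox6c-ps1 and Ndufv3). This count was made after the values were seen and carries no test. Cox5a, a matrix-side subunit of complex IV, was represented by a probe set that read 7.88, 7.71, 8.01, 7.95 and 7.85 in controls 1 to 5 and 7.81, 7.71, 8.29, 8.60 and 8.26 in HMB 1 to 5. HMB animals 3 to 5 lay above all controls and HMB animals 1 and 2 among them, for a difference of 0.25 ± 0.15 (SE, 5 rats a group, limma adjusted p = 0.314). A brighter Cox5a probe set, left out by the rule because it also names LOC100361008, ran the other way, with 11.53, 11.45 and 11.57 in HMB animals 3 to 5, below all controls (11.62 to 11.67). Ndufb8, a membrane-arm subunit of complex I, read 6.57, 6.92 and 6.96 in HMB animals 3 to 5, below all controls (7.14 to 7.46), and 7.43 and 7.48 in HMB animals 1 and 2. The dimmer second probe set of Uqcrc2, a core protein of complex III, read 4.70, 4.72 and 5.21 in HMB animals 3 to 5, below all controls (5.51 to 5.94), and 5.84 and 5.99 in HMB animals 1 and 2. The dimmer probe set of Sdhd, a membrane anchor of complex II, read 9.67, 9.67 and 9.64 in HMB animals 3 to 5, below all controls (9.72 to 9.94), and that of Ndufa7 read 5.46, 5.55 and 5.55 there, below all controls (5.67 to 6.005).

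The same 3 animals stood apart in 1 of the array's end measures of RNA and not in another, and in other array measures. Poly-A control signal minus hybridisation control signal was -1.54, -1.78 and -1.47 in HMB animals 3 to 5, above all other arrays (at most -1.90). The SD of all log2 values was 2.377, 2.385 and 2.382 there, below all other arrays (at least 2.426). Array medians were 4.401, 4.391 and 4.409 there, above all other arrays (at most 4.381). The 3' minus 5' signal of GAPDH, which grows as RNA is shortened, was 1.97, 2.09 and 1.90 in HMB animals 3 to 5, above all controls (1.38 to 1.77), and 1.31 and 1.378 in HMB animals 1 and 2, below all controls. The 3' minus 5' signal of actin was 3.62, 3.96 and 3.58 in HMB animals 3 to 5, with HMB animal 4 alone above the controls (3.25 to 3.64), and 3.16 and 3.18 in HMB animals 1 and 2. With HMB animals 1 and 2 left out, Cox5a passed among genes (log2 difference 0.50, limma adjusted p = 0.0399), 1 of the 71 members, where 4.95% of all genes passed. In the same setting Cox5a, Ndufb8 and the second Uqcrc2 probe set passed among probe sets (limma adjusted p = 0.0309, 0.0465 and 0.0175), 3 of the 77, where 6.75% of all probe sets passed. With HMB animals 3 to 5 left out, limma called 0 of all genes and 0 of all probe sets, or 0%, with 1612 genes at an unadjusted p under 0.05, so that a count of members says nothing there, and the differences of Cox5a and Ndufb8 were -0.12 and 0.19. The genes described were picked with their values in view. The fit without HMB animals 1 and 2 used the same split of animals by which these probe sets were picked. Their adjusted p there repeat that choice and give no separate support. The part of RNA length, or of the other array measures, in them was not tested.

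**Figure D5:**
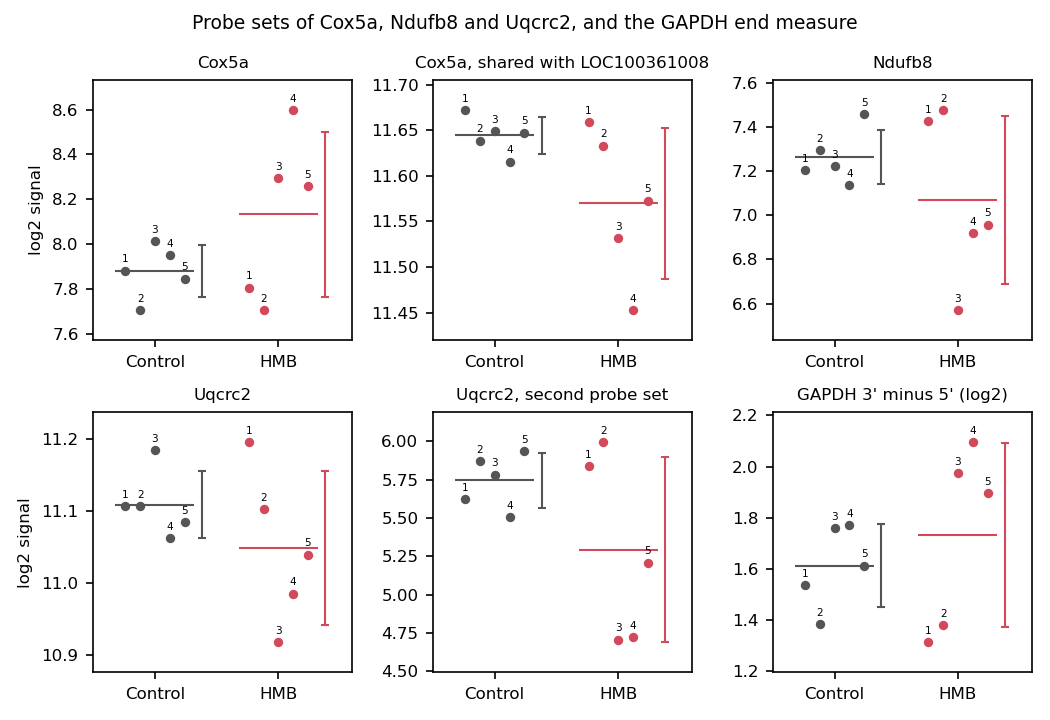
Log2 signal of probe sets of Cox5a, Ndufb8 and Uqcrc2 and the GAPDH 3' minus 5' signal (log2) in each animal (numbered points), with the group mean (line) and SD (bar, n = 5) on separate axes. HMB animals 3 to 5 lie on 1 side of all controls in each panel, and HMB animals 1 and 2 do not join them in any.

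Of the probe sets left out for naming several genes, 2 hold Cycs together with Cycsl1 and Cycs-ps9. The brighter read 11.91, 11.85, 11.79, 11.83 and 11.81 in controls 1 to 5 and 11.72, 11.63, 11.75, 11.73 and 11.66 in HMB 1 to 5, with all HMB animals below all controls and a difference of -0.14 ± 0.068 (SE, 5 rats a group, limma adjusted p = 0.227 over probe sets). The dimmer differed by -0.24 ± 0.093 (adjusted p = 0.148), with HMB 1 at 10.38 above controls 3 and 4. The probe sets shared by Cox7a2, Uqcrb, Ndufs5 and Ndufa10 with another named gene differed by -0.06, -0.06, -0.04 and 0.04. These 7 probe sets do not separate a gene from its copy, and the Cycs values were picked with their values in view.

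Promoters of the members were searched for short sequence elements that the selection did not use, and 29 of 63 held at least 1. NRF1, the ETS factor GABP and YY1 are known regulators of nuclear respiratory genes. RefSeq promoters of assembly GRCr8, 250 bases before to 50 after the gene start, were available for 63 of the 71 members and searched on both strands. The ETS letters CCGGAAG were in 17 of 63, or 27.0%, against 8.75% of all 33469 promoters of that length. Among the 21842 promoters of protein-coding genes the share was 10.7%. The YY1 letters AAGATGGC were in 13, or 20.6%, against 3.17% of all and 3.68% of protein-coding promoters. The NRF1 letters GCGCATGCG were in 4, or 6.35%, against 1.52% and 1.92%. The 29 members with at least 1 of the 3 made 46.0%, against 12.5% of all and 15.1% of protein-coding promoters. The other members searched held none. The NRF1 letters match their own reverse complement shifted by 1 base, so that GCGCATGCG is often found on both strands at once. The ETS letters end in AAG, with which the YY1 letters begin, so that 1 stretch can hold both, and the YY1 letters also hold an ATG. A match is a description of letters and shows no binding.

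The 4 stretches printed here belong to members described above, with capitals marking the matched letters on either strand. Cox8a is shown for holding ETS and YY1 letters in a gene whose groups did not overlap, Uqcrq for ETS letters in another such gene, and Ndufaf4 for NRF1 letters in the member with the largest estimate. Ndufa11, an accessory membrane subunit of complex I with a difference of -0.09, is shown for its overlapping NRF1 matches and was chosen after the search. Ndufa2, whose groups did not overlap either, also held ETS and YY1 letters. Ndufa7, Ndufb4 and Cox6b1, likewise without overlap, held none of these letters. The NRF1 letters were also in Ndufaf5 and Uqcrc1, which differed by -0.13 and 0.11. Whether such letters go with the differences was not tested.

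Cox8a promoter, GRCr8 chr1:213833595-213833705, minus strand: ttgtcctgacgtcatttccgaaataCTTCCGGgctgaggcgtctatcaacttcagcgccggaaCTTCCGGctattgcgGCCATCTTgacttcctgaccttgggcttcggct

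Uqcrq promoter, GRCr8 chr10:38089969-38090025, minus strand: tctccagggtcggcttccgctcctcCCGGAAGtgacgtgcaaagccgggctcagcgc

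Ndufaf4 promoter, GRCr8 chr5:43401612-43401671, plus strand: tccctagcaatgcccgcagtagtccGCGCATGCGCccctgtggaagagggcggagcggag

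Ndufa11 promoter, GRCr8 chr9:1637492-1637557, plus strand: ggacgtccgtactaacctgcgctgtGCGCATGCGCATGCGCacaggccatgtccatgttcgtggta

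The regulators themselves did not pass the test, with 0 of 14 measured genes of mitochondrial biogenesis called and a median of -0.05. Nrf1, the factor of the NRF1 letters, read 4.42, 4.72, 4.42, 4.78 and 4.82 in controls 1 to 5 and 4.23, 3.81, 4.34, 4.36 and 4.30 in HMB 1 to 5. All HMB animals lay below all controls, with a difference of -0.42 ± 0.12 (SE, 5 rats a group, limma adjusted p = 0.0815). Pprc1, a coactivator related to PGC-1, differed by -0.78 ± 0.21 (adjusted p = 0.0709), and Gabpa, the DNA-binding subunit of GABP, by 0.16.

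Other genes of the pathway gave 0 calls in each list as well. Of all genes 53.5% lay below 0, as did 2531 of 3554 in the brightest level class and 2737 of 3554 in the next. Of 16 genes of ATP synthase, the enzyme driven by the proton gradient, 11 lay below 0 with a median of -0.06. Atp5mg, a membrane subunit, differed by -0.19 (limma adjusted p = 0.162), with all HMB animals below all controls. Atp5pf differed by -0.11, also with all HMB animals below all controls, and Atp5me by 0.14. Of 27 assembly factors of complexes II to IV, 22 lay below 0 with a median of -0.13. Among them Uqcc3, which assists complex III, differed by -0.31 ± 0.077 (SE, 5 rats a group, adjusted p = 0.0631) and Sdhaf1, which assists complex II, by -0.38 ± 0.12 (adjusted p = 0.0909). Taco1, a dim gene of the same list, differed by 0.27 (limma adjusted p = 0.104). Of 8 further genes of complex I assembly, 4 lay above 0, and Nubpl, which delivers iron-sulfur clusters to complex I, differed by 0.34 ± 0.086 (adjusted p = 0.0631). Nubpl read between 6.97 and 7.318 in controls and between 7.322 and 7.61 in HMB. Tmem70 differed by 0.26 (limma adjusted p = 0.0978), also with all HMB animals above all controls, and Foxred1 by -0.11.

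Among enzymes that feed electrons to ubiquinone, 8 were measured with a median of -0.006. Gpd2, the mitochondrial glycerol phosphate dehydrogenase, differed by -0.57 ± 0.17 (SE, 5 rats a group, limma adjusted p = 0.0857), Prodh by 0.28 and Dhodh by -0.22. Genes of ubiquinone synthesis numbered 10 with a median of -0.03, with Coq4 at 0.22, Coq2 at -0.26 and Coq5 at -0.26. Of 11 citric acid cycle genes 7 lay below 0 with a median of -0.005, and Cs, citrate synthase, differed by -0.23 ± 0.074 (adjusted p = 0.0988). Ogdh differed by -0.09 and Idh3a by 0.11. Of 73 mitochondrial ribosomal protein genes 62 lay below 0, with a median of -0.09 and Mrpl47 at -0.50 (adjusted p = 0.0805). Mrps2 differed by -0.33 and Mrpl46 by -0.28. Levels of the 73 ran from 6.26 to 10.40, within the brightest level class and the next, whose genes had medians of -0.07 and -0.12. The array also names COX1 and COX2, subunits of complex IV encoded in mitochondrial DNA, at means of 13.96 and 14.01 in controls and 14.09 and 14.04 in HMB. They differed by 0.13 ± 0.061 (adjusted p = 0.21) and 0.03 ± 0.06 (adjusted p = 0.818).

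Hepatocyte markers were bright, with a mean level over 6 genes of 13.73 to 13.82 in controls and 13.63 to 13.75 in HMB, as the liver label has it. Of the markers of other cell types 0 were called. The mean of 5 macrophage genes ran from 6.39 to 8.25 in controls and from 7.13 to 7.86 in HMB, of 5 endothelial genes from 7.16 to 8.42 and from 7.31 to 7.97, of 7 stellate genes from 5.53 to 6.07 and from 5.40 to 5.85, of 4 cholangiocyte genes from 5.02 to 5.79 and from 5.24 to 5.63, and of 3 adipocyte genes from 4.11 to 4.68 and from 4.39 to 4.46. The mean of 3 erythroid genes ran from 5.60 to 6.14 in controls and from 6.005 to 6.49 in HMB, all 3 above 0. The 4 lymphocyte genes, dim at 2.93 to 3.20 in controls and 3.22 to 3.47 in HMB, also all lay above 0. In the dimmest level class 2802 of 3555 genes did. Above 0 lay 1 of 6 hepatocyte, 3 of 5 macrophage and 0 of 5 endothelial genes. For stellate, cholangiocyte and adipocyte genes it was 2 of 7, 2 of 4 and 1 of 3. The part of these cell markers in the members' values was not tested.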

How the data were processed

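Liver RNA of 10 rats was measured on Affymetrix rat expression arrays, 1 per animal. The deposited values are log2 signals of 31099 probe sets, made by the authors with RMA (version not given in the sources used here), per the submitters' processing notes. RMA adjusts background, normalizes between arrays and summarises probes, which narrows differences of dim probe sets. No raw intensities, detection calls or scan dates were used here. The 57 control probe sets were left out of tests.

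Of 31042 probe sets, 20826 had 1 gene symbol in the platform annotation, 436 had several and 9780 none. Symbols were updated by gene identifier to RefSeq (GRCr8), which matched for all 71 members. Tests used limma 3.58.1 in R 4.3.3 (lmFit and eBayes, HMB minus control, 8 residual and 4.04 prior degrees of freedom), with Benjamini-Hochberg adjustment over all genes or probe sets and no filter on level. Tested on simulated data of 14217 genes for this contrast, the fit found 56% of log2 changes of 0.5 and 95% of log2 changes of 1, and called 5 unchanged genes. Values were drawn separately for each gene, without variation shared across an array, so these figures may not carry over to the real arrays. Lists were described by counts and medians, and intervals have a 95% level.

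Genes were named by complex, the assembly factors with complex I (the 3 largest differences on either side and the 2 smallest p), from a set of well-known subunits, and, for other lists, the 3 smallest p. Other named genes complete a small group or are marked as picked after their values were seen. The members and lists were chosen with earlier results of these data known. The 22 other settings were other scalings, a filter on the lowest 25% of levels, a trended robust prior, array weights, other choices of probe set, the dose label of HMB 1, a poly-A covariate and left-out animals. Groups follow the titles and replicate numbers the order of deposition, and no 2 arrays held identical values (0 pairs). Figures used matplotlib 3.10.9.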

Additional observations from a re-analysis of the deposited data

Results flagged for a closer look

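Each group of 5 animals was checked for a single animal far from the others, over 142 groups of member values and 18 groups of list means. An animal stood out where its gap to the nearest other exceeded 0.71 of the range. This was met in 2 of the 160 groups, where chance gives about 1 in 20. Ndufc1, a small subunit of complex I, read 11.38 in control 2, against 11.47 to 11.50 in the other controls. Cox6c, a subunit of complex IV, read 12.15 in control 4, against 12.03 to 12.06 in the other controls. No HMB animal stood out in this way for any of the 71 members or the lists checked.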

How the results depend on the processing

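No paired analysis was possible because the replicate numbers pair no animals. The count of called members was 0 in 20 of 22 settings and 1 in the others. With HMB animals 1 and 2 left out it was 1 gene, Cox5a, and 3 probe sets, all among those picked above by the same split of animals. Over the fits that left out 1 animal it ran from 0 to 1 for genes and for probe sets, the 1 gene being Ndufaf4 without control 1. Over all genes tested, genes changed by HMB numbered 244, and 82 after cyclic loess, 74 after quantile normalization, 659 with array weights, 30 with HMB 1 as a control, 0 with the poly-A covariate (1914 at an unadjusted p under 0.05 by limma), 0 with HMB animals 3 to 5 left out (1612), 704 with HMB animals 1 and 2 left out, and from 0 (without control 2) to 1014 (without control 1) with 1 animal left out.

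The median log2 difference, all members, -0.0393, was -0.003 after cyclic loess, -0.0051 after quantile normalization, -0.0768 with arrays at the same median and -0.0285 with the poly-A covariate. The median log2 difference, complex I, -0.0392, was -0.0085, -0.0127 and -0.0767 under those 3 scalings. The median log2 difference, complex III, -0.0570, was -0.0211 after cyclic loess, -0.0945 with equal medians, -0.0009 with the poly-A covariate and 0.0167 with HMB animals 3 to 5 left out, the sign turned, and the median log2 difference, complex II, 0.0312, was 0.1311 with the poly-A covariate. The cause was not tested. Single members kept their sign and their side of the threshold in 1428 of 1557 comparisons with another setting. In 127 the sign of an uncalled difference changed, and in 2 a member was newly called. Without the lowest 25% of levels 5 of the 71 members were not tested. Array signal over background limits the dim isoforms most.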
